A study of Homo sapiens with 47 samples.

Results

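The step from passage 8 (P8) to passages 9 and 10 (P9 and P10) was examined in 8 of the 47 libraries of the series. The members were taken by their labels, a choice made with earlier results of these data known. The whole cultures named P9 (r1 and r2) and P10 (r1 to r3) were pooled as the late group of 5 libraries. The 3 unsorted P8 cultures (r1 to r3) were the reference. All came from WA09 (H9), an established human embryonic stem cell (hESC) line and the only line in the series, which was converted to neuromesodermal progenitor (NMP)-like cells and passaged on as pre-neural progenitors (PNPs) with a mesenchymal fraction beside them. P8, P9 and P10 differed in passage and shared everything else in the labels: N2B27 medium without vitamin A, with CHIR-99021 (an inhibitor of GSK3 that activates WNT signaling), rhFGF2, AGN193109 (an inverse agonist of the retinoic acid receptors) and Y-27632 (a ROCK inhibitor). The numbers r1 to r3 mark differentiations, so a P9 and a P10 library of the same number are serial samples of one differentiation and are not independent of each other. P9 is represented by r1 and r2, and P9.r3 was not analysed here. The main fit takes out differences between differentiations, so its p-values weigh the change against how unevenly it ran in these few cultures of 1 line. Part of that unevenness lies between serial samples, which the fit counts as separate libraries.

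The expected counts of the 8 libraries summed to between 38138216 and 60904644, with a median of 49242477. Levels are given as normalized counts, the rounded expected counts divided by a library size factor, and levels of different genes are compared only in TPM, which is scaled for transcript length. Since the cultures were measured in bulk, fewer cells of a type and less RNA per cell cannot be told apart in any of the values that follow.

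The embryonic axis is extended from its tail end by progenitors that carry the caudal factor *CDX2* together with *SOX2*, a factor of neural progenitors. *HOX* genes are switched on in the order of their paralogue numbers as these cells age, and the *HOX13* genes mark the end of the axis. *LIN28A* is an RNA-binding protein of early progenitors that blocks the maturation of let-7 microRNAs, and BMP signals at the border of the neural tube are known to set up neural crest, which leaves the epithelium as migratory mesenchyme.

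The let-7 family is shown because it is the known substrate of *LIN28A*, the gene with the second largest fall. All 9 mature let-7 and miR-98 sequences in the RefSeq table for GRCh38.p14 share the seed GAGGUAG (bases 2 to 8, in capitals here), through which a microRNA pairs with its targets. The libraries were made from polyadenylated RNA, so mature microRNAs were not measured. The members below lie at chr9:94175962-94175983 (let-7a, + strand, 1 of 3 loci with this mature sequence), chr22:46113691-46113712 (let-7b, + strand), chr12:62603691-62603712 (let-7i, + strand) and chrX:53556299-53556320 (miR-98, - strand).
hsa-let-7a-5p: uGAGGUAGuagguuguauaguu
hsa-let-7b-5p: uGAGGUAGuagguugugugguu
hsa-let-7i-5p: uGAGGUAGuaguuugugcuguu
hsa-miR-98-5p: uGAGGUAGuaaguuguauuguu

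Promoters are shown for *CDX2*, which fell, and *BAMBI*, which rose. Each is the 250 bases before the RefSeq start of the gene on GRCh38.p14, written 5′ to 3′ on the gene's own strand. The *CDX2* stretch lies at chr13:27969316-27969565 on the - strand, and its capitals mark the 1 match to TTTATNG, the letters that caudal and posterior *HOX* factors prefer, searched on both strands and found here on the opposite one. The *BAMBI* stretch lies at chr10:28677271-28677520 on the + strand, and its capitals mark the 3 matches to GGCGCC, letters that SMAD1 and SMAD5 bind in BMP target genes and that read the same on both strands. Of 35116 promoter stretches of this length, 8.93% held TTTATNG and 16.4% held GGCGCC, so neither is rare, and a match is a description of the letters only. The stretches of *ID1*, *ID2*, *ID3* and *SMAD9*, which also rose, held 0 matches to GGCGCC, and 1 of the 3 stretches of *BMP4* held 1. TTTATNG was also found in 1 of the 2 stretches of *TFAP2A*, which rose, and had 0 matches in those of *SOX2*, which fell, and *MSX2*, which rose.
CDX2: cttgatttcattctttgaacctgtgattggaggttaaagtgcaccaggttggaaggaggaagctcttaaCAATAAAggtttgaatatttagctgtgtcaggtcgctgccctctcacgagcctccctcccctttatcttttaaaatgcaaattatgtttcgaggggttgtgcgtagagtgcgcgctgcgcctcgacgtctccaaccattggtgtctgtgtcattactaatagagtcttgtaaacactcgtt
BAMBI: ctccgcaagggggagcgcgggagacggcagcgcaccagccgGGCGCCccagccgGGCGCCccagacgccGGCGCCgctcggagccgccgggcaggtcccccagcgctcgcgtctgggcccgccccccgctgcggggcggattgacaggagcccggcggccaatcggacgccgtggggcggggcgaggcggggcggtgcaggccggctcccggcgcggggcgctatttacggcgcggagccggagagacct

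A single late library stood apart from its group. Over 13137 genes, P10.r1 differed from the P8 libraries by a root mean square of 0.468 (r2), 0.576 (r1) and 0.665 (r3) on the log2 scale, and from the other late libraries by 1.08 (P9.r2), 1.09 (P9.r1), 1.22 (P10.r3) and 1.23 (P10.r2). P10.r1 was thus nearer to every P8 library than to any other late one, and nearer to P8.r2 than to P8.r1 of its own number. It is called the library labelled P10.r1 in this sense, and the counts of genes are given with it and without it. Because it was set aside for its expression, the test without it describes how the other 4 late libraries differ from P8.

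With all 8 libraries, 0 of 18454 genes passed in edgeR (quasi-likelihood, blocked by differentiation, Benjamini-Hochberg adjusted p under 0.05, at least 2-fold, mean of at least 100 normalized counts), although 2769 had an unadjusted p under 0.05. The same libraries gave 786 genes with DESeq2 (508 higher, 278 lower), which is 4.26% of those tested, and 599 in an edgeR fit of all 35 whole cultures, here the wider fit, in which the spread, the fold changes and the genes tested all differ, which is 2.84%. Without P10.r1, 587 of 18010 genes (3.26%) passed in edgeR, 306 of them higher (1.7%) and 281 lower (1.56%) in the late cultures. Of these 587, 435 were also among the 786 of DESeq2 with all 8 libraries, and 323 among the 599 of the wider fit. Of the 92 genes of the 587 that were looked at singly, for a list or by the rule for named genes, edgeR with P10.r1 called 0, DESeq2 76 and the wider fit 44. In 13 of the 92 the DESeq2 adjusted p with P10.r1 was 0.0527 to 0.592, among them *HOXB2*, *HOXB8*, *NES*, *NEFM*, *KRT18*, *ARID3B*, *SMAD9*, *STRA6*, *SLC2A1* and *HLA-B*, which neither of these fits called with P10.r1, and *SOX11* and *ETV5*, which the wider fit did call. Without the replicate block, 21 of the 92 lost their call (edgeR adjusted p = 0.0503 to 0.221), among them *HOXB9*, *SP8*, *TFAP2A*, *COL3A1*, *COL6A1*, *TWIST2*, *BMP4*, *SMAD9*, *NOTUM*, *FGF7*, *ETV1*, *ETV5*, *RARB*, *STRA6*, *PMAIP1*, *SLC2A1*, *NUPR1*, *COL10A1* and *IL7R*. With the P9 and P10 counts of each differentiation summed, 438 genes were called, 370 of them among the 587. The genes named below are not marked for this loss. With P10.r1 left out, all 587 lay on the same side of P8 in each of the 3 differentiations. The same libraries made the calls, in a fit blocked by differentiation, so this agreement is a description and not a separate test. Of the 306 and the 281, 304 and 259 were protein-coding. The biological coefficient of variation was 42.1% with P10.r1 and 36.3% without it. The calls rest on 3 residual degrees of freedom: without P8.r2 or without P8.r3, 0 genes passed (2696 and 3038 at an unadjusted p under 0.05), without P8.r1 or without P9.r1 23 passed, without P10.r3 16, without P10.r2 343 and without P9.r2 435. In what follows, rose and fell are used of genes called without P10.r1. The counts for each list stand beside the shares of 1.7% and 1.56% over all genes tested. Log2 fold changes and adjusted p-values are those of the edgeR fit without P10.r1 unless P10.r1 is named.

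*LIN28A*, *SOX2* and *CDX2* were far lower in the late cultures other than P10.r1. *LIN28A* had 55469, 12792 and 6019.9 normalized counts in P8.r1, r2 and r3, 87.4 and 59.9 in P9.r1 and r2, and 19888, 78.7 and 35.7 in P10.r1, r2 and r3. The 4 low libraries were all under 100, whereas P10.r1 lay between P8.r1 and P8.r2. On the log2 scale *LIN28A* fell by 8.05 (SE 0.47, edgeR adjusted p = 0.00962), and the change was -6.31 (SE 1.94, edgeR adjusted p = 0.276, DESeq2 adjusted p = 0.00837) with P10.r1, and -3.25 in the wider fit with it, which did not pass (edgeR adjusted p = 0.0708). One passage before P8, at P7, differentiations r1, r2 and r3 had 82979.6, 26150.5 and 18943 normalized counts, with r1 the highest as at P8.

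*SOX2* had 18020.1, 8157 and 5882 normalized counts in the P8 libraries, 289 and 368 at P9 and 12404, 31 and 44.8 at P10, and fell by 6.04 (SE 0.90, edgeR adjusted p = 0.0319). *CDX2* went from 14012, 4813 and 2539 at P8 to 298 and 299 at P9 and 7692, 108 and 43.9 at P10, and fell by 5.27 (SE 0.47, edgeR adjusted p = 0.0171). For both genes the groups did not overlap once P10.r1 was left out, and P10.r1 was within the P8 range. With it, the changes were -4.82 for *SOX2* (edgeR adjusted p = 0.299, DESeq2 adjusted p = 0.0167) and -4.10 for *CDX2* (edgeR adjusted p = 0.276, DESeq2 adjusted p = 0.000647), and the wider fit gave -3.09 and -2.73 and called neither (edgeR adjusted p = 0.0959 and 0.0596).

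**Figure D1:**
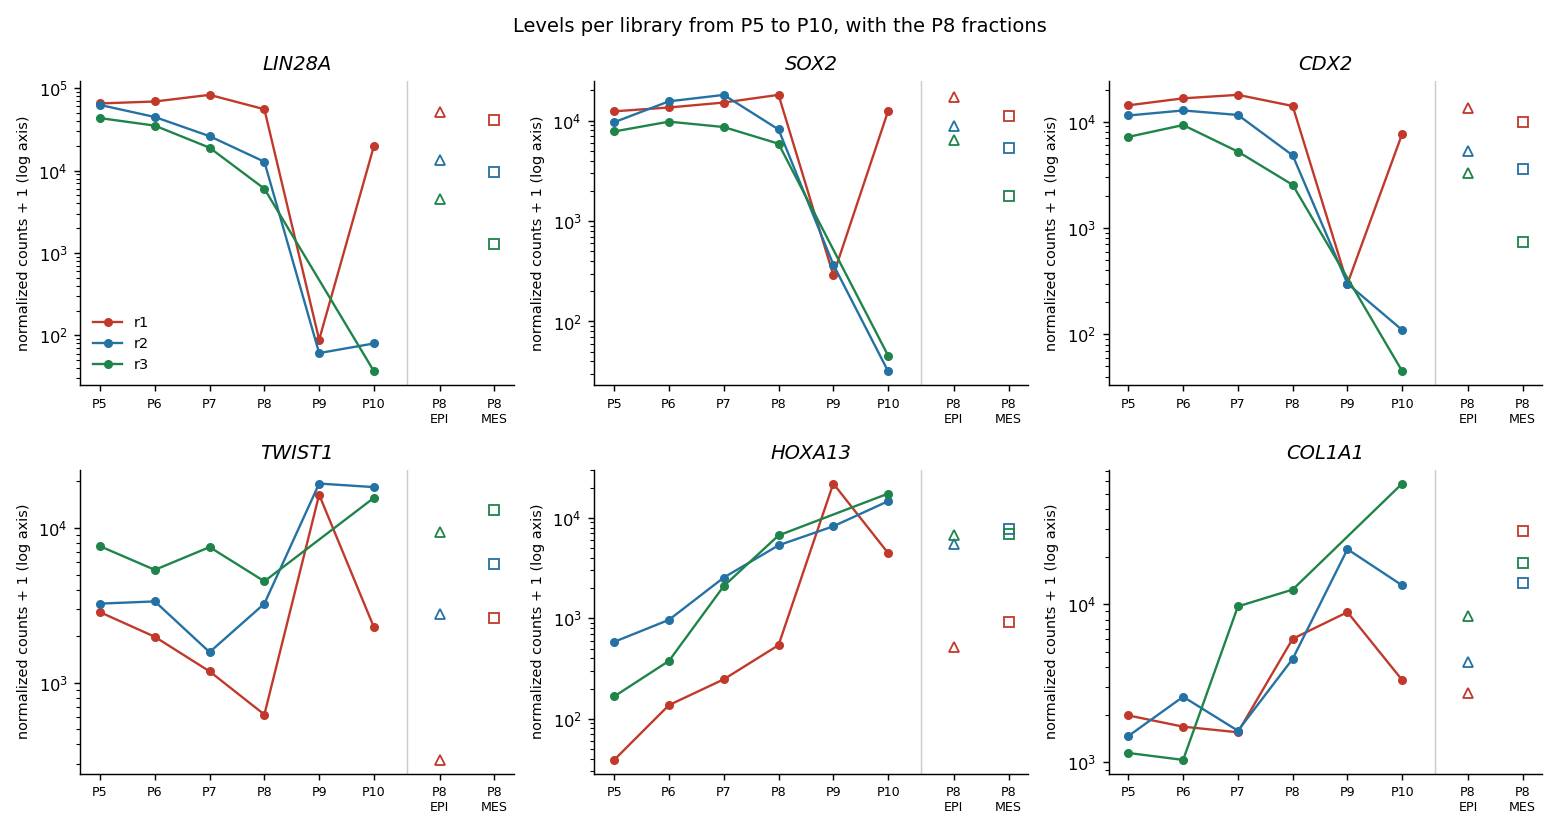
Normalized counts plus 1 (log axis) of *LIN28A*, *SOX2*, *CDX2*, *TWIST1*, *HOXA13* and *COL1A1* in each whole culture from P5 to P10, joined by differentiation (r1 red, r2 blue, r3 green; r3 has no P9 point), with the epithelial (triangles) and mesenchymal (squares) fractions of P8 at the right of each panel. *LIN28A*, *SOX2* and *CDX2* are low at P9 in r1 and r2 and at P10 in r2 and r3, and the r1 line is back within the P8 range at P10.

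Of 14 caudal progenitor factors tested, 3 fell (*CDX2*, *GBX2* and *SP8*), 0 rose, and the median log2 fold change was -1.68 against -0.02 over all genes. *GBX2*, a homeobox factor of the posterior neural plate, had 2300.2, 632 and 1407 normalized counts at P8, 341 and 177 at P9 and 1047, 167 and 128 at P10, and fell by 2.66 (SE 0.33, edgeR adjusted p = 0.0249). *GBX2* and *SP8*, a zinc finger factor of the tail bud, were also called with P10.r1 in the wider fit (edgeR adjusted p = 0.0109 and 0.0221). The *SP8* libraries overlapped between the groups, since P8.r3 had only 31.4 normalized counts.

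Of 18 neural progenitor factors tested, 2 fell (*SOX2* and *NES*) and 0 rose, with a median of -0.69. *NES* encodes nestin, an intermediate filament of neural progenitors, and went from a mean of 25756 ± 7141 at P8 to 11314 ± 2751 normalized counts (SD, n = 4) in the late libraries without P10.r1, a change of -1.29 (SE 0.21, edgeR adjusted p = 0.0375). *PAX6*, which retinoic acid switches on in the neural tube, stayed between 0 and 4.57 normalized counts in all 8 libraries and was too low to test. Of 14 neuronal markers tested, 2 fell and 1 rose. *NEFL*, a neurofilament subunit, had 3243, 2454 and 1433 normalized counts at P8, 179 and 206 at P9 and 2603, 123 and 116 at P10, and fell by 3.92 (SE 0.24, edgeR adjusted p = 0.0102), and its partner *NEFM* fell by 2.07 (edgeR adjusted p = 0.0215). *SOX11*, a factor shared by neurons and embryonic mesenchyme, rose from 8970.1 ± 3241 to 21604 ± 3997 normalized counts (SD, n = 3 and 4), by 1.37 (edgeR adjusted p = 0.0308).

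*HOX* transcripts fell along most of the clusters. Of the 12 genes *HOX1* to *HOX4*, 6 fell and 10 lay lower in the 4 late libraries than in every P8 library, where 12% of all genes did; the median was -2.80. Of the 15 genes *HOX5* to *HOX9*, 13 fell and all 15 lay lower, with a median of -2.54. Of the 6 genes *HOX10* and *HOX11*, 2 fell and 3 lay lower, with a median of -1.01. None of these 33 genes rose. With all 8 libraries no *HOX1* to *HOX11* gene was lower without overlap, and edgeR called 0 of them, while DESeq2 called 6, 11 and 2 of the 3 groups lower and the wider fit 0.

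*HOXB9*, a thoracic paralogue, had 23777, 14064 and 11009 normalized counts at P8, 6587 and 4984 at P9 and 23008, 2349.7 and 1909 at P10, and fell by 2.11 (SE 0.30, edgeR adjusted p = 0.0301). *HOXC5* fell by 4.19 (SE 0.58, edgeR adjusted p = 0.0286), from 931, 405 and 284 to 35.6 and 60.9 at P9 and 823, 16.7 and 11 at P10. Larger falls were called for *HOXD4*, *HOXB4* and *HOXC8*, with changes of -4.75 (SE 0.75), -4.55 (SE 0.55) and -4.38 (SE 0.58). Of these, *HOXD4* was not called without the replicate block. *HOXB8* fell by 2.54 (edgeR adjusted p = 0.0258) and *HOXB2* fell by 2.42 (edgeR adjusted p = 0.0375). Not every anterior gene passed: *HOXA3* had a change of -0.80 (edgeR adjusted p = 0.135), and *HOXB1*, at 118 normalized counts in P8.r1 and at 26.8 or less in the other 7 libraries, had an edgeR adjusted p of 0.262. Among *HOX10* and *HOX11* genes, the called ones were *HOXC10*, with a change of -2.89 (SE 0.36), and *HOXC11*, with -2.32 (SE 0.43). *HOXA10* had a change of 0.05 (SE 0.17, edgeR adjusted p = 0.887), and *HOXD10* had one of -0.88 (edgeR adjusted p = 0.0731).

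None of the 6 terminal genes *HOX12* and *HOX13* passed, and their median was 0.27; with P10.r1, DESeq2 called *HOXA13* (adjusted p = 0.0454) and *HOXD13* higher, and the wider fit called neither (edgeR adjusted p = 0.131 and 0.156). *HOXA13* had 539, 5328 and 6685 normalized counts in the P8 libraries, 21959.5 and 8245 at P9 and 4464, 14649 and 17429.9 at P10. P8.r1 had the lowest value, r2 and r3 stood at 582 and 166 at P5 before their P8 values, and the change was 2.15 (SE 0.89, edgeR adjusted p = 0.226). *HOXD13* had 2889.8, 4694 and 2719.9 at P8, 20103 and 9058 at P9 and 5444, 22634 and 7992 at P10, so that all 5 late libraries, P10.r1 included, lay above all 3 of P8, as 3.01% of all genes did. Its change was 1.98 (SE 0.41, edgeR adjusted p = 0.0631) without P10.r1 and 1.82 (edgeR adjusted p = 0.276, DESeq2 adjusted p = 0.00762) with it. Without P10.r1 and without the replicate block, *HOXD13* changed by 2.11 and was called (edgeR adjusted p = 0.0409). *HOXB13* was uneven, with 536, 3808 and 3681 at P8 and 2346 to 3599.9 in the late libraries, and changed by 0.36 (edgeR adjusted p = 0.78), a value whose sign turned when P8.r1 was left out (-0.43).

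On the TPM scale the make-up of the *HOX* transcripts shifted as their sum shrank. The 39 *HOX* genes summed to 4113, 2660 and 2251 TPM in P8.r1, r2 and r3, to 1779 and 1225 in P9.r1 and r2, and to 3933, 1353 and 941 in P10.r1, r2 and r3. *HOX12* and *HOX13* genes held 7.43%, 18.6% and 20.4% of this sum at P8, 48.4% and 39.2% at P9, and 14.6%, 55.7% and 45.8% at P10. P10.r1 again lay inside the P8 range for both measures, and the other 4 late libraries lay outside it. The summed TPM of the *HOX13* genes alone was 112, 273 and 260 at P8, 689 and 340 at P9 and 287, 608 and 364 at P10, so the larger share came with a higher level of these genes and a lower level of the rest. The mean paralogue number weighted by TPM was 7.67 to 8.49 at P8 and 9.76 to 11.01 in the 4 late libraries, and 7.82 in P10.r1. The *HOX* cofactors of the MEIS, PBX and PKNOX families did not pass in any of 9 cases, in either direction.

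**Figure D2:**
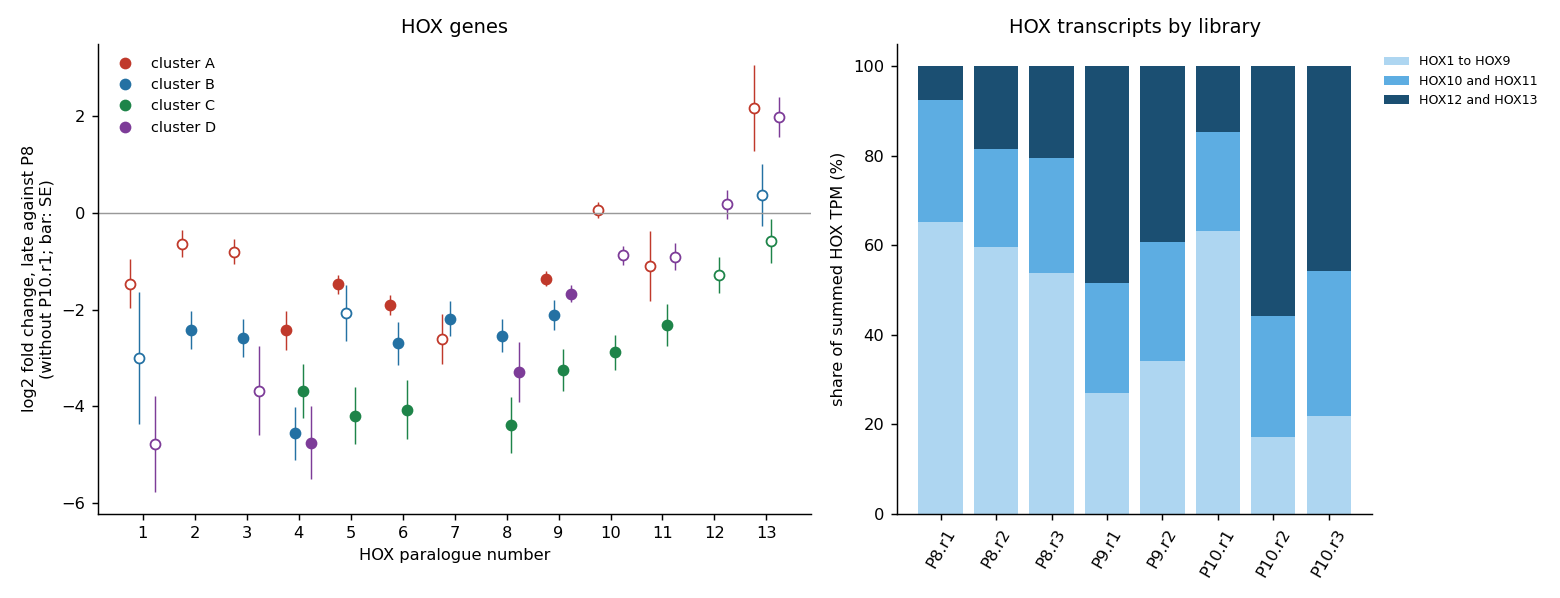
Left, log2 fold change of each *HOX* gene between the late libraries without P10.r1 and P8, by paralogue number and cluster (bars are SE, filled points are called). Right, share of the summed *HOX* TPM held by *HOX1* to *HOX9*, *HOX10* and *HOX11*, and *HOX12* and *HOX13* in each of the 8 libraries. Values lie under 0 up to paralogue 9 and scatter around 0 at the end of the clusters, and the dark share is 39.2% to 55.7% in the late libraries other than P10.r1.

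In the LIN28 and let-7 axis, 4 of 16 genes fell and 0 rose (median -0.58). Besides *LIN28A* these were *TRIM71*, *HMGA1* and *ARID3B*, which are known let-7 targets. *TRIM71*, a stem cell RNA-binding protein, had 10501, 2460.5 and 2121 normalized counts at P8, 306 and 556 at P9 and 4741, 317 and 98.8 at P10, and fell by 3.96 (SE 0.60, edgeR adjusted p = 0.0333). The chromatin protein *HMGA1* went from 41003 ± 9285 to 17702 ± 4439 normalized counts (SD, n = 3 and 4) and fell by 1.25 (edgeR adjusted p = 0.0425), and *ARID3B* fell by 1.19 (edgeR adjusted p = 0.0477). Other let-7 targets did not pass, among them *HMGA2* (-0.21, edgeR adjusted p = 0.614) and *IGF2BP1* (-0.53, edgeR adjusted p = 0.219). *LIN28B*, the paralogue of *LIN28A*, had 7326, 3801 and 3442 normalized counts at P8, 1655 and 1825 at P9 and 5133, 2741 and 1392 at P10, a change of -1.36 (SE 0.31, edgeR adjusted p = 0.0747). *MIRLET7BHG*, the host transcript of let-7a and let-7b at the locus on chromosome 22, was low throughout, with 0.71, 9.52 and 22 at P8, 40.2 and 22.3 at P9 and 5.85, 48.9 and 31.1 at P10, and it did not pass (edgeR adjusted p = 0.251).

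Of 21 neural crest markers tested, 5 rose (*TFAP2A*, *SNAI1*, *SNAI2*, *MSX1* and *MSX2*) and 0 fell, with a median of -0.12. *TFAP2A*, a factor of the neural plate border and early crest, had 115, 197 and 1314 normalized counts at P8, 4473 and 7561 at P9 and 183, 6398 and 6903 at P10, and rose by 4.36 (SE 0.69, edgeR adjusted p = 0.0356). *MSX2*, a homeobox gene that BMP signals switch on, had 572, 928 and 1079 at P8, 22099 and 13222 at P9 and 1377, 16293 and 26737 at P10, and rose by 4.53 (SE 0.31, edgeR adjusted p = 0.0143). In both genes the 4 late libraries lay far above P8, and P10.r1 lay near it. With P10.r1 both were called by DESeq2 (adjusted p = 0.000122 and 3.2e-07) and in the wider edgeR fit (adjusted p = 0.0182 and 0.00352).

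*SNAI1*, a repressor of epithelial genes, rose by 3.71 (SE 0.40, edgeR adjusted p = 0.0199), from 127, 175 and 302 normalized counts at P8 to 2348 and 3156 at P9 and 187, 1288 and 3052 at P10. *SNAI2* rose by 2.13 (edgeR adjusted p = 0.0427) and *MSX1* by 2.01 (edgeR adjusted p = 0.0188). *TWIST1*, which acts in mesenchyme, had 623, 3246 and 4527 at P8, 16414 and 19386 at P9 and 2285, 18383 and 15675 at P10. Without P10.r1 its groups did not overlap and its change was 2.90 (SE 0.58), which missed the threshold in edgeR (adjusted p = 0.0554). When the replicate block was also left out, the change was 2.63 and passed (edgeR adjusted p = 0.0454). With P10.r1 it was 2.76, which passed in DESeq2 (adjusted p = 0.000646) and in the wider edgeR fit (adjusted p = 0.0264).

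The other members of the list did not pass. *SOX9* had 2538, 9460.3 and 15744 normalized counts at P8, 1995 and 3919 at P9 and 3939, 154 and 915 at P10, a change of -2.24 (SE 1.20, edgeR adjusted p = 0.334). *FOXD3* had 431, 2167 and 4527 at P8 and 15.5 to 732 in the late libraries (edgeR adjusted p = 0.321), and *SOX10* had 48.2, 74.4 and 882 and 11.9 to 65 (edgeR adjusted p = 0.425). P8.r3 had the highest value of these 3 genes among the 8 libraries. *TFAP2B*, with 289, 1994 and 13998 at P8, 2455 and 5759 at P9 and 972, 1352 and 5079 at P10, changed by 0.80 (SE 1.01, edgeR adjusted p = 0.687), and the sign turned to -0.58 without the replicate block. *MITF*, the pigment cell factor, changed by -0.93 (edgeR adjusted p = 0.365), and the homeobox genes *DLX5* and *DLX6* by 2.08 (edgeR adjusted p = 0.299) and 2.11 (edgeR adjusted p = 0.337). In the wider fit without P10.r1, *DLX5* was called (edgeR adjusted p = 0.0432). The summed TPM of all 22 crest markers was 685 to 1786 at P8, 1934 to 2879 in the 4 late libraries and 866 in P10.r1.

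Of 26 mesenchymal and matrix genes, 7 rose and 1 fell, with a median of 0.97, while their summed TPM overlapped between the groups, with 9376 to 17796 at P8, 9675 to 16769 in the 4 late libraries and 14846 in P10.r1. Among the collagens, *COL6A2* had 6105, 10251 and 22943 normalized counts at P8, 37048 and 72547 at P9 and 9464, 72531 and 112180.0 at P10, and rose by 2.57 (SE 0.18, edgeR adjusted p = 0.0143). *COL3A1* rose by 1.87 (edgeR adjusted p = 0.0173) and *COL6A1* by 1.72 (edgeR adjusted p = 0.0171). The growth factor receptor *PDGFRB*, the cadherin *CDH11* and the factors *TWIST2* and *PRRX1* rose by 1.80, 1.27, 3.06 and 1.02 (edgeR adjusted p = 0.0144, 0.0313, 0.048 and 0.0252). *CDH11* was higher in all 5 late libraries than in all of P8, with 19427, 30938 and 33418 at P8, 66104 and 65006 at P9 and 35887, 63546 and 73383 at P10. *COL1A1* (1.61, edgeR adjusted p = 0.0847) and *VIM* (1.13, edgeR adjusted p = 0.084) did not pass, and *DCN* (0.21) and *LUM* (0.04) had changes near 0.

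The member that fell was *ACTA2*, smooth muscle actin, with 8239, 16121 and 4952 normalized counts at P8, 581 and 556 at P9 and 4405, 125 and 561 at P10. It fell by 4.40 (SE 0.70, edgeR adjusted p = 0.0363), and all 5 late libraries lay under all 3 of P8, as 2.57% of all genes did. The other contractile genes of the list, *TAGLN* and *CNN1*, had changes of -2.62 (edgeR adjusted p = 0.125) and -2.74 (edgeR adjusted p = 0.0869) and did not pass. Of 12 epithelial genes tested, 2 fell and 0 rose (median -1.19). These were the keratins of simple epithelia: *KRT8* had 2803, 6761 and 1325 at P8, 648 and 487 at P9 and 4526, 280.2 and 317 at P10 and fell by 2.99 (SE 0.49, edgeR adjusted p = 0.0373), and *KRT18* fell by 2.50 (edgeR adjusted p = 0.0258). *CDH1*, E-cadherin, stayed between 15.6 and 63.2 normalized counts in all 8 libraries, and *EPCAM* changed by -1.89 (edgeR adjusted p = 0.0603).

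**Figure D3:**
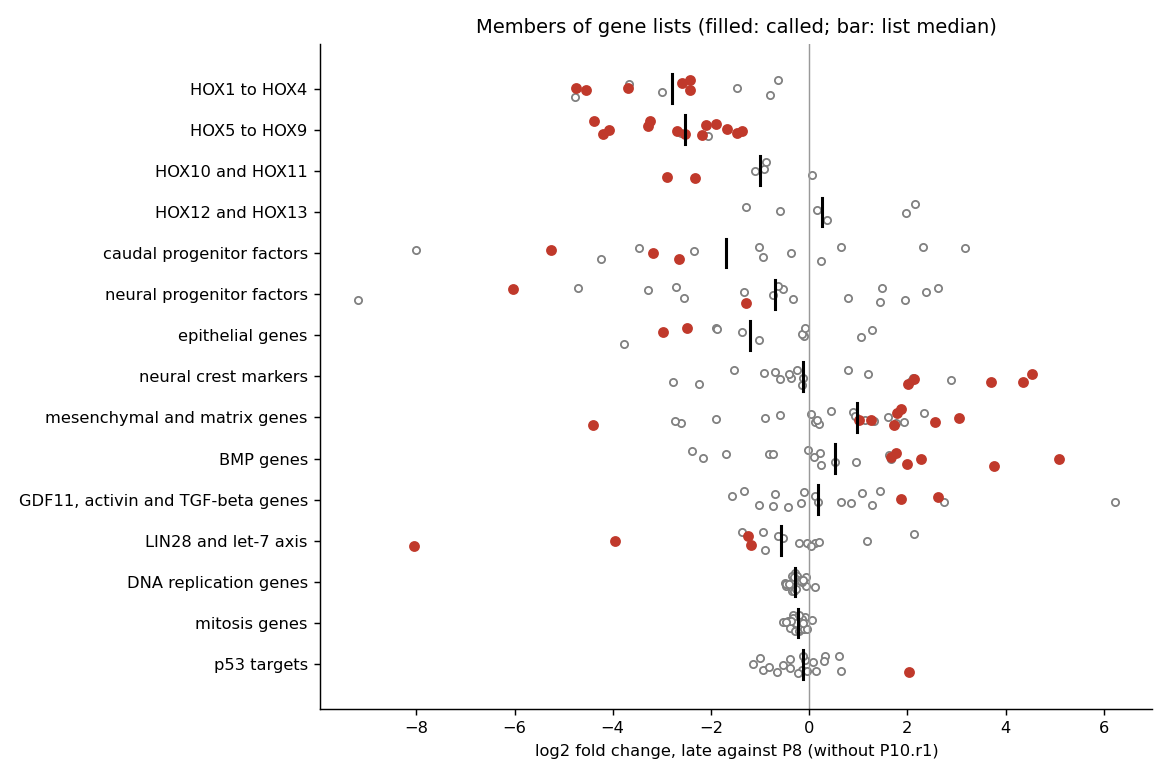
Log2 fold change, late libraries without P10.r1 against P8, of each tested member of 15 gene lists (filled points are called, black bars are list medians). The *HOX1* to *HOX9*, caudal and epithelial lists lie mostly left of 0, the BMP and mesenchymal lists have called members on the right, and the replication and mitosis lists sit close to 0.

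Genes of the BMP pathway gave 6 rises and 0 falls among 19 tested (median 0.52). The ligand *BMP4* had 2335, 10820.3 and 4456 normalized counts at P8, 5958 and 26308 at P9 and 7264, 37722 and 20349 at P10. Groups overlapped, but within each differentiation the late libraries, P10.r1 included, were higher than P8, and *BMP4* rose by 1.67 (SE 0.23, edgeR adjusted p = 0.0274) without P10.r1, with nearly the same size with it (1.69, edgeR adjusted p = 0.218, DESeq2 adjusted p = 1.3e-09).

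Known targets of the pathway were among the genes that rose. *BAMBI*, a decoy receptor whose upstream letters are shown above, had 89.4, 531 and 657 normalized counts at P8, 14071 and 8323 at P9 and 642, 9051 and 19302 at P10, and rose by 5.10 (SE 0.71, edgeR adjusted p = 0.0286). *ID1*, an inhibitor of differentiation factors, had 482, 819 and 2209.8 at P8, 14394 and 12054 at P9 and 1292, 8647 and 16479 at P10, and rose by 3.77 (SE 0.42, edgeR adjusted p = 0.0209). *ID2* and *ID3* rose by 2.28 and 2.00 (edgeR adjusted p = 0.0188 and 0.0252), and the signal transducer *SMAD9* by 1.77 (edgeR adjusted p = 0.0446). In *BAMBI* and *ID1*, P10.r1 was within the P8 range, and both were called with it by DESeq2 (adjusted p = 2.0e-07 and 1.2e-05). The secreted antagonists *NOG* and *GREM1* did not pass: *NOG* had 1731, 1508 and 1693 at P8, 786 and 721 at P9 and 3265, 83.5 and 461 at P10 (-1.69, edgeR adjusted p = 0.215), with its highest value in P10.r1 and its lowest in P10.r2, and *GREM1* changed by -2.38 (edgeR adjusted p = 0.194). The summed TPM of the BMP genes was 859.6 to 1272 at P8, 2766 to 3365 in the 4 late libraries and 1259.8 in P10.r1.

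Of 19 *GDF11*, activin and TGF-beta genes tested, 2 rose and 0 fell (median 0.17). *GDF11*, a trunk-to-tail signal, had 13946, 14724 and 11049.9 normalized counts at P8, 7936 and 8329 at P9 and 17869.5, 7540.3 and 8304 at P10. P10.r1 had the highest value of the 8 and the other late libraries the lowest 4, a change of -0.75 (SE 0.14, edgeR adjusted p = 0.0473) that stayed under the 2-fold minimum, and of -0.51 (edgeR adjusted p = 0.444) with P10.r1. The ligand *TGFB3* rose from 139 ± 77.3 to 805 ± 306 normalized counts (SD, n = 3 and 4), by 2.63 (edgeR adjusted p = 0.0209), and the inhibitory *SMAD7* from 575 ± 233 to 2083 ± 706, by 1.88 (edgeR adjusted p = 0.0322).

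Over all genes tested 1.7% rose and 1.56% fell, the shares to set beside each count in this paragraph. Of 26 WNT genes, 1 rose and 1 fell, and whether this exceeds those shares was not tested. *NOTUM*, an enzyme that inactivates WNT proteins, had 60.3, 706 and 209 normalized counts at P8, 2093 and 30929 at P9 and 334, 6694 and 6189 at P10, and rose by 4.87 (SE 0.62, edgeR adjusted p = 0.0251). *SFRP2*, which binds WNT ligands, had 2998, 811 and 934 at P8, 24.1 and 80.2 at P9 and 1135, 15.5 and 24.7 at P10, and fell by 5.30 (SE 0.81, edgeR adjusted p = 0.0341). Of 21 FGF genes tested, 3 rose (the ligand *FGF7* by 4.77, and the signal-responsive factors *ETV5* and *ETV1* by 1.57 and 1.01) and *FGF13* fell by 2.02 (edgeR adjusted p = 0.0225, 0.0237, 0.0486 and 0.0311). Without the replicate block 0 FGF genes were called higher and 1 lower. Of 16 retinoid genes tested, the synthesis enzyme *ALDH1A3* and the receptor *RARB* rose, by 2.87 and 3.52, and the retinol transporter *STRA6* fell by 1.04 (edgeR adjusted p = 0.0367, 0.0498 and 0.0492). Of 13 Notch genes tested, the ligand *JAG1* fell by 2.33 and the target *NRARP* fell by 2.88 (edgeR adjusted p = 0.0463 and 0.0356), and 0 rose. None of 9 Hedgehog genes passed. Their summed TPM was 386 to 509 at P8, 165 to 337 in the 4 late libraries and 354 in P10.r1. In the same order, Notch genes summed to 400 to 448, 257 to 368 and 389, and WNT genes to 1328 to 1763, 2032 to 4147 and 1778. FGF genes summed to 966 to 1355, 1368 to 1894 and 1910, and retinoid genes to 904 to 1042, 651 to 960 and 909.5. Differences between these sums were not tested.

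Cell cycle genes moved little. None of 20 DNA replication genes and none of 20 mitosis genes passed in edgeR, with or without P10.r1, nor in DESeq2 or the wider fit with all 8 libraries. The values lay mostly under 0, for 19 of 20 in both lists, with medians of -0.29 and -0.22 and the lowest at -0.49 and -0.52. *MKI67*, a proliferation marker, had 32430.3, 14814 and 20332 normalized counts at P8, 14692 and 22934 at P9 and 33185, 18869 and 24808 at P10 (-0.08, edgeR adjusted p = 0.918). None of 6 CDK inhibitors passed, and *CDKN1A* changed by 0.13 (edgeR adjusted p = 0.88). Of 20 p53 targets, 1 rose: *PMAIP1*, which promotes apoptosis, had 1911, 875 and 1221 at P8, 9741 and 3510.0 at P9 and 2307, 3809 and 4163 at P10, and rose by 2.04 (SE 0.15, edgeR adjusted p = 0.0151). In the stress, YAP and TEAD, hypoxia and interferon lists 1 gene each passed, of 15, 12, 14 and 12 tested. Over all genes 3.26% passed, and these single calls were not tested against that share. *HMOX1* and *F3* rose by 2.20 and 2.03, and *SLC2A1* and *HLA-B* fell by 1.59 and 1.65 (edgeR adjusted p = 0.0173, 0.0486, 0.0456 and 0.0421). None of 17 cholesterol and lipid synthesis genes and none of 11 imprinted growth genes passed.

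Markers of other cell types were counted member by member. The summed TPM of the 10 endothelial markers was 4.47 to 16.5 at P8, 13.2 to 21.9 in the 4 late libraries and 11.2 in P10.r1. Among them the receptor *KDR* had 32.6, 86.5 and 85.7 normalized counts at P8, 827 and 1575 at P9 and 109, 715 and 1234 at P10, and rose by 4.01 (SE 0.40, edgeR adjusted p = 0.0188), while *CDH5*, which defines endothelium, stayed between 2.38 and 13.8 in all 8. The sums were 7.79 to 21.5 TPM at P8 and 1.85 to 3.67 in the 4 late libraries for 15 somite and paraxial mesoderm factors, 17.9 to 28.5 and 6.31 to 146 for 11 endoderm markers, and 4.14 to 11.7 and 3.93 to 16.3 for 10 pluripotency markers, and no member of these 3 lists passed. The 20 lateral plate, limb and kidney factors summed to 151 to 325 TPM at P8, 118 to 178 in the 4 late libraries and 306 in P10.r1, and of 12 tested 1 rose, *TBX3*. This T-box repressor of limb and flank mesenchyme had 6.39, 27.7 and 170.4 normalized counts at P8, 2096 and 3359.8 at P9 and 4.18, 6554 and 7201 at P10, and rose by 6.90 (SE 0.71, edgeR adjusted p = 0.0188; DESeq2 with P10.r1, adjusted p = 0.000204). Their part in the results above was not tested.

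Among the 306 genes that rose, the 10 with the largest fold change were *IL10*, *GABRR1*, *NUPR1*, *AREG*, *COL10A1*, *TBX3*, *SPTSSB*, *CHRM4*, *IL7R* and *RANBP3L*. Of these, 3 had at most 3 counts in every P8 library, so their folds are lower bounds against a floor of 3 counts per library: the mean of the 4 late libraries was at least 109.9-fold higher for the cytokine *IL10*, at least 116-fold for the GABA receptor subunit *GABRR1* and at least 143-fold for the stress factor *NUPR1*. *NUPR1* rested on 1 library, with 1392 and 24.4 normalized counts at P9 and 5.85, 5.96 and 74.1 at P10, and *IL10* was at 2.3 in P9.r1 against 118, 675 and 357 in P9.r2, P10.r2 and P10.r3. *CHRM4*, a muscarinic acetylcholine receptor, was more even, with 8.51, 21.6 and 12.5 at P8, 349.5 and 1899.7 at P9 and 19.2, 3802 and 3229.6 at P10, and rose by 6.85 (SE 0.63, edgeR adjusted p = 0.0173). *AREG*, a ligand of the EGF receptor, had 0.71, 7.79 and 2.09 at P8, 297 and 136 at P9 and 7.52, 527 and 1258 at P10, and rose by 7.05 (SE 1.06, edgeR adjusted p = 0.033). Of the 10, 9 were also called with P10.r1 by DESeq2, and the tenth, *COL10A1* (DESeq2 adjusted p = 0.000518), was under the mean minimum there.

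The 10 largest falls were *MUSTN1*, *LIN28A*, *CNTNAP4*, *URAD*, *PTPRR*, *RFX4*, *PLD5*, *PTPRB*, *LRP2* and *HOXB-AS3*. *MUSTN1*, named for its expression in muscle and skeleton, had 582, 765 and 192 normalized counts at P8, 4.6 and 0 at P9 and 701, 0 and 0 at P10, and fell by 8.96 (SE 0.94, edgeR adjusted p = 0.019). *CNTNAP4*, a neuronal adhesion protein, had 4170.5, 2772 and 1483 at P8, 57.5 and 14.2 at P9 and 3743, 9.54 and 1.83 at P10, and fell by 7.51 (SE 0.57, edgeR adjusted p = 0.0151). In both genes P10.r1 was at the level of P8 and the other late libraries were near 0. *PTPRR* and *PTPRB*, both receptor-type tyrosine phosphatases, fell by 6.73 and 6.31 (edgeR adjusted p = 0.018 and 0.00586), *RFX4*, a factor of neural tube progenitors, fell by 6.55 (edgeR adjusted p = 0.0346), and *LRP2*, an endocytic receptor of neuroepithelium, fell by 6.21 (edgeR adjusted p = 0.0407). *HOXB-AS3* is antisense to HOXB genes and its count is uncertain, because the sources used here do not give a strand setting (fell by 6.12, edgeR adjusted p = 0.0209). All 10 were called with P10.r1 by DESeq2, with adjusted p-values from 0.00044 to 0.0293, whereas the wider fit with P10.r1 called only *PTPRR*, *RFX4* and *LRP2* of them, and its change for *MUSTN1* was -2.09 (edgeR adjusted p = 0.372). The DESeq2 change of *MUSTN1* was -11.7 with P10.r1 and -9.48 without it, although P10.r1 was at the level of P8. That call therefore does not show that the fall holds with P10.r1, where edgeR gave -7.12 (edgeR adjusted p = 0.323).

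The passages were also taken apart, in a fit of the 8 libraries with P8, P9 and P10 as separate groups that share the P8 libraries. No gene passed in edgeR for P9 against P8 (3097 of 19187 at an unadjusted p under 0.05, 1029 called by DESeq2, 63 in edgeR without P10.r1), for P10 against P8 (1596, 306 and 159) or for P10 against P9 (912, 95 and 0). Since P9 lacks r3, the place of each P10 library was described over 1156 genes that differed at least 2-fold, the same way, between P8 and P9 in both r1 and r2 (613 higher and 543 lower at P9), with 0 set at P8 and 1 at P9. The median gene lay at -0.10 in P10.r1, at 1.11 in P10.r2 and at 1.18 in P10.r3. In P10.r1 3.98% of these genes lay at 0.5 or beyond, against 86.8% in P10.r2 and 93.1% in P10.r3. Differentiation r3 entered the choice only through P8.r3, in the required mean of at least 100 normalized counts over P8 and P9. From P8.r3 to P10.r3 543 of the 613 (88.6%) were higher and 507 of the 543 (93.4%) were lower, where 54.6% and 45.4% of 13133 genes of that mean were. P10.r1 followed P9.r1 of the same differentiation number, and over these genes it lay with P8. The sources used here do not say whether it was handled otherwise, and its label could not be checked by other data.

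**Figure D4:**
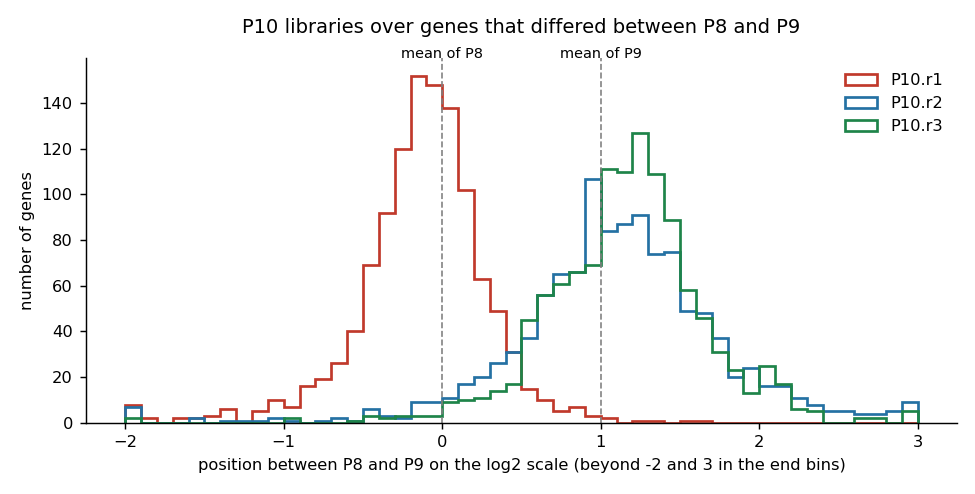
Number of genes by their position between the mean of P8 (0) and the mean of P9 (1) on the log2 scale in P10.r1 (red), P10.r2 (blue) and P10.r3 (green), over 1156 genes that differed between P8 and P9 in r1 and in r2; values beyond -2 and 3 are in the end bins. The P10.r1 genes pile up around 0 (median -0.10), and those of P10.r2 and P10.r3 around 1.11 and 1.18.

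Fractions of P8 enriched for epithelial (EPI) or mesenchymal (MES) cells, 3 libraries each, were not used to call the genes against whole P8. Of the 306 genes that rose, 286 (93.5%) had a higher mean in the mesenchymal than in the epithelial fraction, and of the 281 that fell 17 (6.05%) did, beside 47.2% of all genes tested. Against the mesenchymal fraction, 0 of 18707 genes passed with P10.r1 (2019 at an unadjusted p under 0.05, 263 with DESeq2), and 385 of 18541 (2.08%) passed without it, 140 higher (0.755%) and 245 lower (1.32%) in the late cultures. Of the 306 genes, 115 were also called higher than in the mesenchymal fraction, and of the 281, 191 were also called lower; both comparisons share the late libraries. The count against the mesenchymal fraction fell to 52 without the replicate block, and to 10 and 6 without P8_MES.r1 and P8_MES.r2.

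*LIN28A*, *SOX2* and *CDX2* had 1274 to 41246, 1786 to 11176 and 729.6 to 9971 normalized counts in the mesenchymal fraction, and changed against it by -7.09, -4.99 and -4.37 (edgeR adjusted p = 0.00693, 0.0189 and 0.0114). *HOX1* to *HOX4* gave 7 falls of 12, and *HOX5* to *HOX9* gave 12 of 15. *HOXD13* was called here, higher by 2.34 (SE 0.49, edgeR adjusted p = 0.0455). Without the replicate block the *HOX1* to *HOX4* group kept 1 call and the *HOX5* to *HOX9* group 0, and *SOX2*, *CDX2* and *HOXD13* did not pass (edgeR adjusted p = 0.0577, 0.0644 and 0.0606), while *LIN28A* did (edgeR adjusted p = 0.0487). The 5 largest rises against the mesenchymal fraction were *AREG* (8.22), *SPTSSB* (6.12), *GABRR1* (5.73), *TBX3* (5.72) and *IL7R* (5.72), and the 5 largest falls *MUSTN1* (-7.93), *LIN28A* (-7.09), *CNTNAP4* (-6.27), *PTPRR* (-6.08) and *URAD* (-6.04). Of these 10, *AREG*, *GABRR1*, *TBX3*, *IL7R* and *URAD* did not pass without the replicate block (edgeR adjusted p = 0.0577, 0.0817, 0.186, 0.246 and 0.053). Of the mesenchymal and matrix genes only 1 of 26 was called higher than in the mesenchymal fraction, and *COL3A1* (0.74, edgeR adjusted p = 0.253) and *COL6A2* (1.12, edgeR adjusted p = 0.14) did not pass. A fraction and a whole culture also differ in how the cells were collected, which cannot be told apart from passage here.

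The called genes were then read in libraries that did not enter the fit. The value of P10.r1 among them is a description only, since it was left out for its nearness to P8. In P10.r1 the 306 genes that rose had a median log2 difference of 0.01 from the mean of P8, with 51% above it where 49.8% of all genes were, and the 281 that fell had a median of 0.25, with 33.1% under it where 50.2% of all genes were. At P1 to P3 the medians ran from -0.80 to -0.07 for the genes that rose and from -1.08 to -0.38 for those that fell. By the median, the genes that fell were thus also lower than P8 at these early passages. At P7, r1, r2 and r3 had medians of -0.55, -0.33 and 0.25 for the genes that rose and 0.16, 0.25 and -0.22 for those that fell. In the mesenchymal fraction of P8 these medians were 0.15, 0.60 and 1.36 for the first set and 0.12, -0.27 and -1.38 for the second. In the epithelial fraction they were -0.80, -0.01 and 0.83, and 0.42, 0.12 and -0.50. Differentiation r3 thus lay furthest to the late side at P7 and in both fractions.

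**Figure D5:**
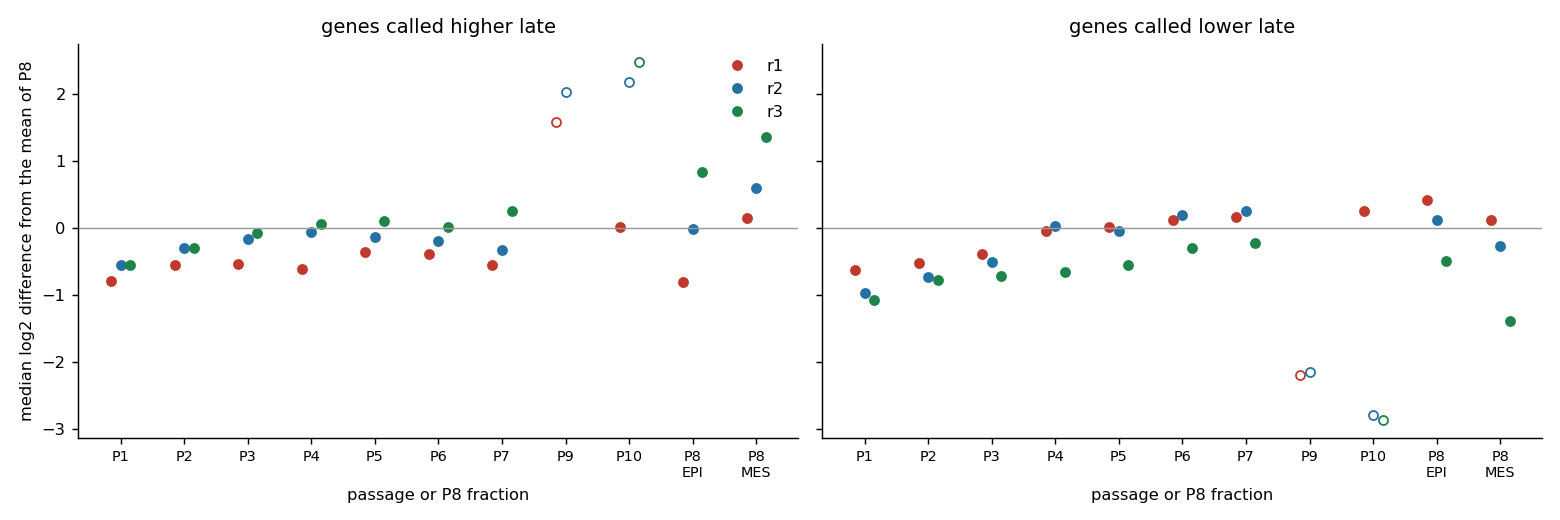
Median log2 difference from the mean of P8, over the 306 genes that rose (left) and the 281 that fell (right), in each whole culture of P1 to P7, P9 and P10 and in the P8 fractions (r1 red, r2 blue, r3 green; filled points were outside the fit, open points were in it). P10.r1 lies at 0.01 and 0.25, beside P8, and the mesenchymal fraction of r3 reaches 1.36 and -1.38.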

How the data were processed

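RNA-seq of the whole cultures of P8 (n = 3), P9 (n = 2) and P10 (n = 3) was analysed, with the P8 epithelial and mesenchymal fractions (n = 3 each) for comparison. The authors deposited RSEM expected counts, which need not be whole, and TPM, which RSEM derives from them by transcript length, for 58051 genes per library. The submitters' processing notes name RSEM 1.3.0, STAR 2.5.2b, cutadapt 1.16 and GRCh38, and the strand setting is not given in the sources used here. Symbols of GENCODE 29 were matched to 57447 genes. Genes that share reads, such as close paralogues, have counts divided by RSEM's estimate.

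Expected counts were rounded, and genes kept by filterByExpr were tested with edgeR 4.0.16 (TMM, glmQLFit, glmQLFTest; limma 3.58.1, R 4.3.3) with a block for the replicate number and p-values adjusted by Benjamini-Hochberg over all genes tested. Genes were called where the adjusted p was under 0.05, the fold 2 or more and the mean of the compared libraries 100 normalized counts or more. DESeq2 1.42.0 with the same block, other scalings, filters and thresholds, a fit with all 35 whole cultures (all 47 libraries for the fractions), the P9 and P10 counts of a differentiation summed, and fits without each library or differentiation were alternatives. The fits were tested on simulated data, where edgeR called 92.5% of genes raised by 3 and 50% of those raised by 1.5 on the log2 scale with 8 libraries (18454 genes), and 95% and 62.5% with 7 (18010 genes). Of genes lowered by 1.5 it called 42.5% in both. False calls numbered 2 with 8 libraries and 5 with 7. Apart from a small block effect, the simulated late libraries shared a mean for each gene, so none stood near P8 as P10.r1 did. These rates therefore do not describe the real fit with P10.r1.

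The pairing of libraries by number comes from their names. Deviations from the group means of the 8 libraries correlated by a mean of 0.107 between libraries of the same number and of -0.049 between others, and by 0.0309 and -0.00296 with the pairs of P10.r1 left out. The block was kept because the numbers name differentiations.

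The members and the 34 gene lists were chosen with earlier results of these data known. Named genes are the 10 largest rises and falls among the called genes that moved the same way in all 3 differentiations, the genes the study discusses for late passages, up to 4 called members of each list with others needed to describe it, and the 5 largest in each direction against the mesenchymal fraction. Because 0 genes were called with all 8 libraries, the calls without P10.r1 were used for this choice, and no gene was named for P10 against P9. In the YAP and TEAD list 12 of 14 symbols matched a gene. A *HOX* gene that enters the counts and sums is not reported by itself. A count of 3 per library was taken as the floor for folds. Positions used log2(normalized count + 1). Promoter, microRNA and coordinate data are from the RefSeq tables for GRCh38.p14. Scripts ran in Python 3.11.15 with pandas 2.3.3, numpy 2.4.6 and matplotlib 3.10.9. Without molecular identifiers in the reads, the floor covers counting error alone.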

Additional observations from a re-analysis of the deposited data

Results flagged for a closer look

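In the late group of 5, a library stood far from the others in 9 of the 36 genes looked at, on the scale of log2(normalized count + 1), by Dixon's ratio of the gap to the range. Chance flags about 1 in 20 groups, but that rate does not apply here: 8 of the 9 cases concern P10.r1, and *TBX3*, *SPTSSB*, *LIN28A*, *MUSTN1* and *PTPRB* were named for large changes in the fit without P10.r1, a choice that favours genes in which the other 4 late libraries are alike. The ratio was 0.901 for *TWIST1*, 0.859 for *TFAP2A*, 0.830 for *TBX3* and 0.805 for *SPTSSB*, in which P10.r1 was the lowest late library. It was 0.885 for *GDF11*, 0.860 for *LIN28A*, 0.737 for *MUSTN1* and 0.768 for *PTPRB*, in which P10.r1 was the highest. For *MITF* it was 0.750, and the low library was P10.r2, with 596 normalized counts against 1712 to 2432 in the other 4.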

How the results depend on the processing

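For the late group against P8 with all 8 libraries, edgeR called 0 genes, DESeq2 786, the wider fit 599, no filter on low counts 37 and P9 and P10 summed per differentiation 18, and the fits without a library or a differentiation gave 0 to 587. Without P10.r1, the 587 calls became 10 at an adjusted p under 0.01, 1440 with DESeq2, 944 with no filter and 1374 in the wider fit, and 0 to 435 without a further library or differentiation. Of the 587 genes, 586 were called by DESeq2, 583 with its size factors in edgeR, 557 in the wider fit and 370 of the 438 called with P9 and P10 summed. Without the replicate block 637 genes were called, 442 of them shared. With all 8 libraries 0 genes were called with and without the block, so these counts cannot show its effect. There 2769 genes had an unadjusted p under 0.05 with the block and 1981 without it. For P9 against P8, 0 calls became 1029 with DESeq2 and 904 in the wider fit, and 0 to 63 without a library. For P10 against P8 they became 306 and 242, and 0 to 159, and for P10 against P9 95 and 7, and 0 to 0. Against the mesenchymal fraction with P10.r1, 0 became 263 with DESeq2 and 122 in the wider fit, and 0 to 385 without a library. Without P10.r1 the 385 became 24 at an adjusted p under 0.01, 598 with no mean minimum, 52 without the replicate block, 890 with DESeq2 and 770 in the wider fit, and 6 to 527 without a further library and 0 to 142 without a differentiation. The cause of these shifts was not tested. The median positions of P10.r1, P10.r2 and P10.r3 were -0.08, 1.16 and 1.17 over genes that differed at least 4-fold. Of 103 genes refitted in every alternative, which are the 92 called genes looked at singly and the uncalled ones the study discusses, all but *TFAP2B* and *HOXB13* kept their direction with and without P10.r1, and other uncalled genes were not followed. *TFAP2B* was -0.81 without the replicate block with all 8 libraries and -0.58 without P10.r1, and ran from -0.22 to 1.60 with all 8 and to 1.71 without P10.r1 in the fits without a library or differentiation. *HOXB13* ran from -0.43 to 1.28 and to 1.25 in such fits. With 3 residual degrees of freedom, a p that missed the threshold does not show that a gene stayed level. Depth limits genes at or under 3 counts in a group to lower bounds of their folds.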

Other observations

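Among the genes called without P10.r1, 7 of 827 lincRNA genes tested fell (0.846%) and 1 rose (0.121%), and of 956 antisense genes 6 fell (0.628%) and 0 rose. Over all genes tested 1.56% fell and 1.7% rose, and over 14434 protein-coding genes 1.79% and 2.11%. The antisense counts are uncertain for want of a strand setting.

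In several lists the 4 late libraries without P10.r1 spread more widely than the 3 of P8. The summed TPM of 17 cholesterol and lipid synthesis genes was 2747 to 2865 at P8 and 1236 to 4114 in the 4 late libraries without P10.r1, and 2602 in P10.r1. For 15 unfolded protein and stress genes it was 1284 to 1333 at P8, 1389 to 3563 in the 4 late libraries and 1166 in P10.r1. Neuronal markers summed to 427 to 469.9 at P8 and 394 to 904 in the 4 late libraries, CDK inhibitors to 145 to 178 at P8 and 134 to 259 in the 4 late libraries, and imprinted growth genes to 984 to 1045 at P8 and 766 to 1229 in the 4 late libraries. The lists were picked after their values were seen, and the spreads were not tested.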
